A study of Mus musculus with 12 samples.

Results

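The 10 genes described here encode proximal signalling components of the B-cell receptor (BCR). They run from the chains that sit with the receptor to proteins further down its route. They are Cd79a, Cd79b, Syk, Blnk, Btk, Plcg2, Vav1, Vav2, Prkcb and Bcl10. They were chosen by gene symbol in the array's platform annotation, and all 10 were measured, each by a single probe set, among 18820 genes in all. Expression had been profiled on 12 Affymetrix Mouse Gene 1.1 ST arrays of primary B lymphoma cultures from l-MYC;B1-8f mice of strain C57BL/6J x BALB/c, which carry a MYC transgene and a B1-8 heavy chain variable gene flanked for deletion by Cre. All cultures, including those that gave the BCR-positive cells, had been exposed to TAT-Cre, a cell-permeable recombinase, and so contained both receptor-bearing and receptor-less cells from 1 lymphoma. The cells grew together for 4 days, untreated or with CHIR99021, which inhibits the kinase GSK3, and the BCR-positive and BCR-negative fractions were then sorted. The 4 groups were thus untreated BCR-positive, untreated BCR-negative, CHIR99021-treated BCR-positive and CHIR99021-treated BCR-negative cells, with 1 array from each of lymphomas 2564, 2646 and 2676 in every group (n = 3). The sources used here give neither the dose of CHIR99021 nor the age of the mice. The BCR-positive cells are cells of the same Cre-exposed culture in which the receptor was still present, not a culture without Cre. All cells carry the MYC transgene, and the values come from 3 tumours.

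The BCR is a membrane immunoglobulin that binds antigen, held together with a pair of signalling chains, CD79A and CD79B. When the receptor is engaged, tyrosines in the tails of these chains are phosphorylated and the kinase SYK binds them. SYK phosphorylates the adaptor BLNK, which gathers the kinase BTK, the phospholipase PLCG2 and the exchange factors VAV1 and VAV2. PLCG2 releases calcium and makes diacylglycerol, which activates protein kinase C beta, the product of Prkcb, and through it the complex that contains BCL10 and switches on NF-κB. In B lymphomas this route is known as a source of survival signals and as a target of kinase inhibitors.

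Values are log2 expression levels, on which a difference of 1 is a factor of 2. Differences were taken within lymphomas and are given as the mean ± standard error (SE) from limma, with n = 3 lymphomas, and a gene is called when its adjusted p over all 18820 genes was under 0.05. The SE and p-values rest on 1 residual spread per gene. It is pooled over the 4 groups after differences between lymphomas are removed, and moderated across genes by limma. It is therefore not the spread of a single difference between these 3 lymphomas. The array medians lay between 4.71 and 4.92. Ighv1-72, the variable segment of the deleted heavy chain, was between 10 and 10.63 on the 6 BCR-positive arrays and between 6.56 and 9.12 on the 6 BCR-negative arrays, without overlap. The other receptor chains measured, Ighm and Igkc, overlapped between the fractions and were not called for BCR loss. Their BCR-loss differences were -0.02 ± 0.492 and -0.40 ± 0.267 in untreated and -0.94 ± 0.492 and 0.001 ± 0.267 in treated cultures, with mixed signs between lymphomas. B-cell markers other than Cd79a and Cd79b were high (Pax5 9.62 to 10.67, Ebf1 8.47 to 10.84, Cd22 8.34 to 9.84), except Ms4a1, which encodes CD20 and lay between 3.03 and 3.92, under the level of 4.12 that marks the lowest 30% of genes. Summed up as the mean of each list, markers of T cells (7 genes) lay between 4.18 and 4.33, of NK cells (5) between 3.60 and 4.00, of neutrophils (4) between 4.07 and 4.23, of macrophages (7) between 4.07 and 5.18, and of stroma and endothelium (5) between 5.23 and 5.91. Single markers reached higher levels, among them Csf1r (4.52 to 8.53), Itgam (4.68 to 8.03), Pecam1 (7.09 to 9.45), Cdh5 (4.82 to 6.19), Klrb1c (3.62 to 5.76) and Mrc1 (3.63 to 5.75), while the macrophage markers Adgre1, Cd14 and Lyz2 stayed at or under 4.37.

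**Figure D1:**
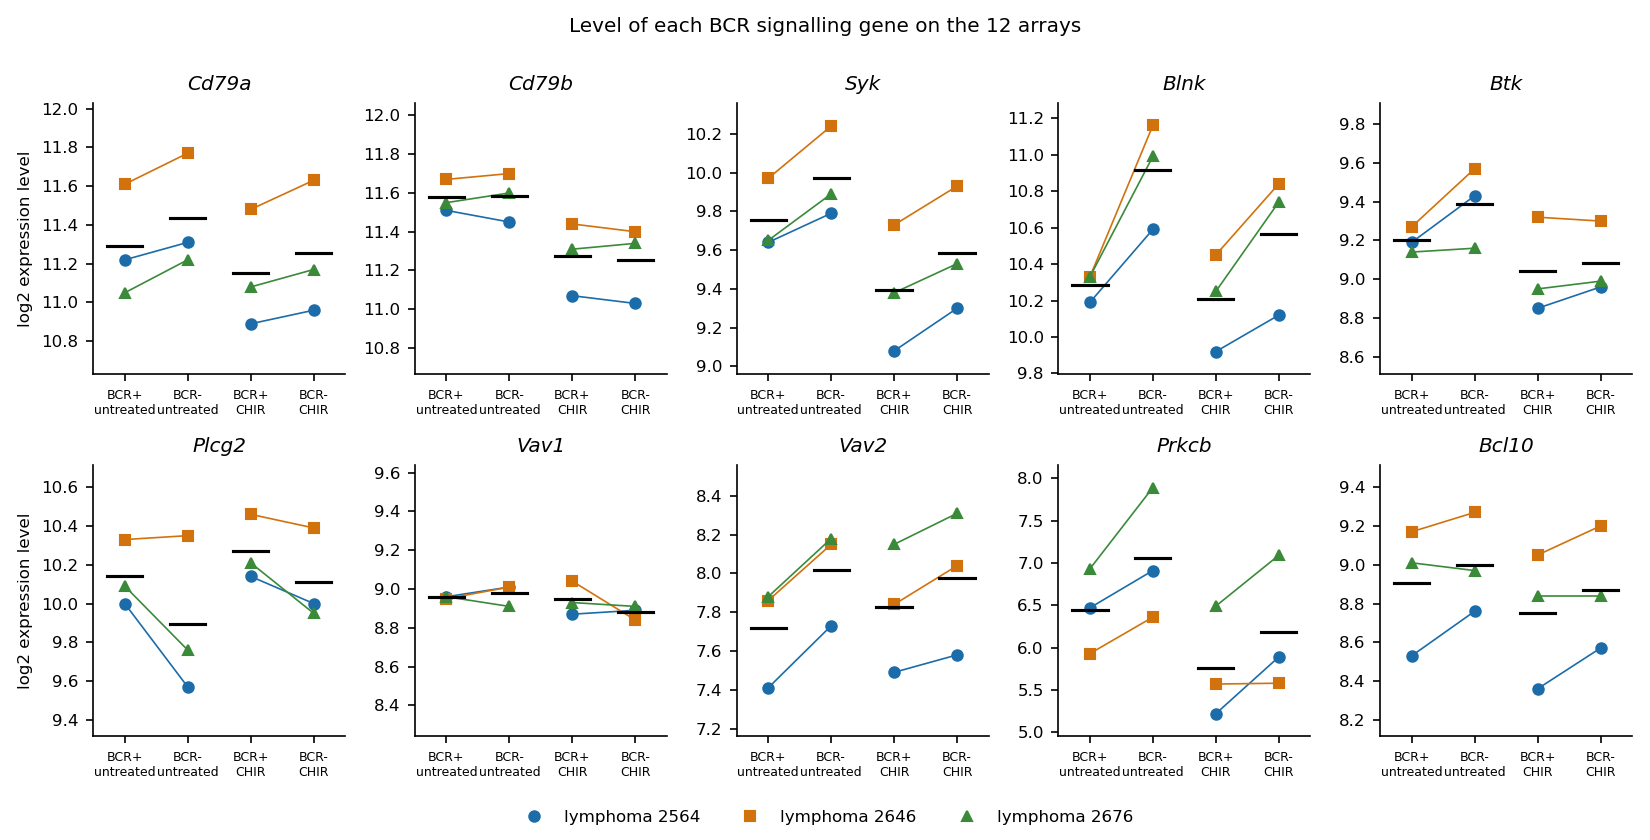
Log2 expression level of the 10 genes on the 12 arrays, by group (CHIR, CHIR99021), with 1 symbol per lymphoma, lines joining the populations of a culture and black bars at group means; each panel has its own range. Blnk was higher in untreated BCR-negative (10.59 to 11.16) than BCR-positive cells (10.19 to 10.33), and Cd79b lay lower in every CHIR99021-treated culture.

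The first question was whether loss of the receptor was accompanied by a change in the genes that transmit its signal. In untreated cultures Blnk and Vav2 rose in BCR-negative cells, by 0.63 ± 0.0962 (1.55-fold) and 0.31 ± 0.0707 (1.24-fold), and the other 8 genes were not called. Prkcb showed a difference of 0.61 ± 0.174 and Syk of 0.22 ± 0.0688, in each lymphoma higher in the BCR-negative cells, but neither passed (limma, adjusted p = 0.0784 and 0.0991). Of all genes tested, 1.91% were called higher and 2.3% lower, against 2 and 0 of the 10. The median difference of the 10 genes was 0.16 beside -0.002 for all genes, and 6 of the 10 had the same sign in all 3 lymphomas, as did 39.9% of all genes. After subtraction of array medians the split of called genes moved from 359 higher and 432 lower to 288 and 1013, and after cyclic loess to 389 and 261.

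In CHIR99021-treated cultures BCR loss gave no call among the 10 genes, where limma called 0.0106% of all genes higher and 0.00531% lower. At an unadjusted p under 0.05 there were 3 of the 10 and 1628 of all genes. Blnk differed by 0.36 ± 0.0962, Prkcb by 0.43 ± 0.174 and Syk by 0.19 ± 0.0688 (limma, adjusted p = 0.457, 0.55 and 0.533). The median of the 10 was 0.11 (all genes, 0.005), and 6 of the 10 had the same sign in all 3 lymphomas (31.7% of all genes). Whether BCR loss had another effect with than without the inhibitor was tested by the interaction, the BCR-loss difference with CHIR99021 minus that without. No gene was called in it, so the background was 0% in either direction, and none of the 10 and 990 of all genes had an unadjusted p under 0.05. Blnk gave -0.27 ± 0.136 with a 95% confidence interval from -0.57 to 0.04 (limma, adjusted p = 0.928), and Vav2 -0.16 ± 0.10 with an interval from -0.38 to 0.06. For Syk it was -0.03 ± 0.0974 and for Cd79b -0.03 ± 0.0854. Only Blnk and Vav2, 2 of the 10, had the same sign in all 3 lymphomas here, beside 28.3% of all genes.

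The second question was what inhibition of GSK3 did to these genes. In BCR-negative cells Prkcb fell by 0.87 ± 0.174 (to 0.548 of the untreated signal), Syk by 0.39 ± 0.0688 (0.765) and Cd79b by 0.33 ± 0.0604 (0.796). Of all genes 1.76% were called lower and 1.91% higher, against 3 and 0 of the 10, and subtraction of array medians moved the overall split from 360 higher and 332 lower to 836 and 253 (cyclic loess, 237 and 354). The median of the 10 was -0.24 (all genes, 0.01), and 9 of the 10 had the same sign in all 3 lymphomas, beside 37.2% of all genes. Vav2 was the exception, and Plcg2 was the single gene of the 10 with a positive mean (0.22 ± 0.0889). Blnk at -0.34 ± 0.0962 and Btk at -0.31 ± 0.0836 did not pass (limma, adjusted p = 0.0806 and 0.0747), though Btk was called after cyclic loess. Of the markers of other cells, the macrophage gene Lyz2 rose by 0.46 ± 0.1 in the same comparison (limma, adjusted p = 0.0389). Lyz2 was dim, at 3.52 to 4.28 over the 12 arrays, with a mean under the level of 4.12 that marks the lowest 30% of genes. The macrophage list as a whole lay between 4.27 and 5.18 on untreated and 4.29 and 5.0 on treated BCR-negative arrays, and its part in the result was not tested.

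In BCR-positive cells none of the 10 was called for CHIR99021, while 0.0691% of all genes were called lower and 0.00531% higher. At an unadjusted p under 0.05 there were 4 of the 10 and 1891 of all genes. The mean differences of the genes called in BCR-negative cells were -0.68 ± 0.174 for Prkcb, -0.35 ± 0.0688 for Syk and -0.30 ± 0.0604 for Cd79b (limma, adjusted p = 0.196, 0.105 and 0.107), and each was negative in all 3 lymphomas. The interaction, which also measures how the inhibitor's effect differs between the populations, was not called for any of them, and its 95% confidence intervals ran from -0.73 to 0.37 for Prkcb, from -0.25 to 0.18 for Syk and from -0.22 to 0.16 for Cd79b. The median of the 10 was -0.15 (all genes, 0.003), and 5 of the 10 kept 1 sign in the 3 lymphomas (35.5% of all genes).

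**Figure D2:**
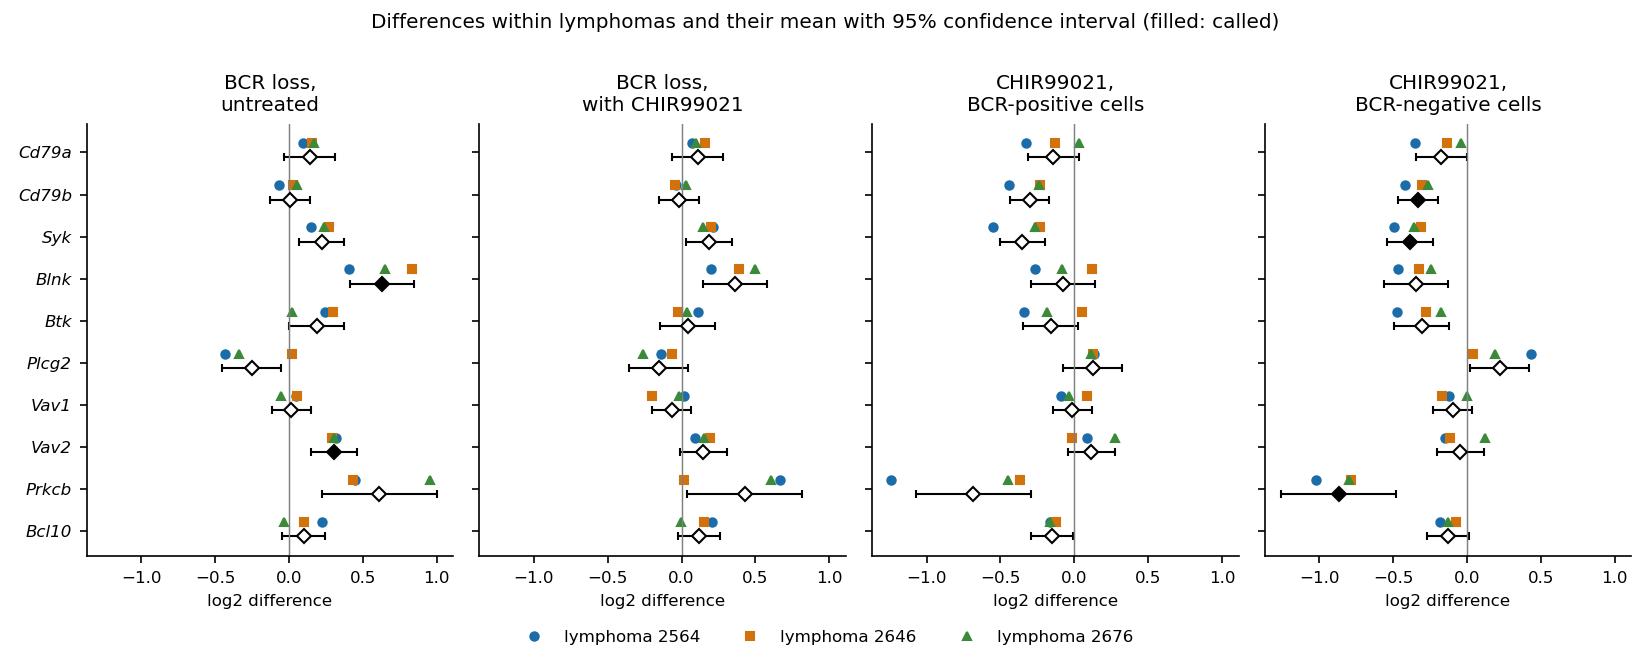
Log2 differences of the 10 genes in 4 comparisons, with coloured symbols for the 3 lymphomas and a diamond with its 95% confidence interval for the limma mean, filled where the gene was called. Blnk and Vav2 are filled for BCR loss in untreated cultures, and Cd79b, Syk and Prkcb for CHIR99021 in BCR-negative cells.

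Since no interaction was called, the mean BCR-loss difference over both cultures and the mean CHIR99021 difference over both populations were added from the same model, a choice made after the values had been seen. Averaged over cultures, Blnk (0.50 ± 0.0680), Prkcb (0.52 ± 0.123), Vav2 (0.23 ± 0.050) and Syk (0.20 ± 0.0487) rose with BCR loss (limma, adjusted p = 0.00855, 0.0383, 0.0326 and 0.0393), so that 4 of the 10 were called higher beside 3.17% of all genes, and 0 lower beside 3.46%. Averaged over populations, Prkcb (-0.78 ± 0.123), Syk (-0.37 ± 0.0487), Cd79b (-0.32 ± 0.0427) and Btk (-0.23 ± 0.0591) fell with CHIR99021 (limma, adjusted p = 0.00889, 0.00441, 0.00457 and 0.0442), 4 of the 10 beside 3.47% of all genes called lower, with 0 called higher beside 3.91%. Subtraction of array medians moved the overall split from 596 higher and 651 lower to 431 and 1594 for BCR loss, and from 736 and 653 to 1468 and 438 for CHIR99021. Under that scaling Syk and Vav2 were no longer called for averaged BCR loss (limma, adjusted p = 0.119 and 0.068) nor Btk for averaged CHIR99021 (adjusted p = 0.114), and Plcg2 was called lower with BCR loss (-0.26, adjusted p = 0.0367). Of the markers of other cells, the endothelial gene Pecam1, which B cells also express, rose by 0.54 ± 0.127 with averaged BCR loss, the only marker called there. Itgam, in the order of lymphomas 2564, 2646 and 2676, was 5.18, 6.63 and 6.74 in untreated BCR-positive and 5.46, 8.03 and 7.34 in untreated BCR-negative cells. With CHIR99021 it was 4.68, 6.02 and 6.63 in BCR-positive and 5.21, 6.46 and 7.41 in BCR-negative cells. It was thus higher in the BCR-negative cells of all 6 cultures, though not called. The 7 macrophage genes, Itgam among them, had a median BCR-loss difference of 0.02 in untreated and 0.02 in treated cultures, and 0.09 averaged. Csf1r of the same list was lower in the BCR-negative cells of treated 2564 (4.79 against 4.83) and 2646 (7.83 against 8.53). In the other cultures it was higher. The mean of the stroma and endothelium list was 5.55 to 5.77 in untreated BCR-positive, 5.63 to 5.91 in untreated BCR-negative, 5.23 to 5.64 in treated BCR-positive and 5.4 to 5.74 in treated BCR-negative cells, and the part of these markers in the result was not tested.

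**Figure D3:**
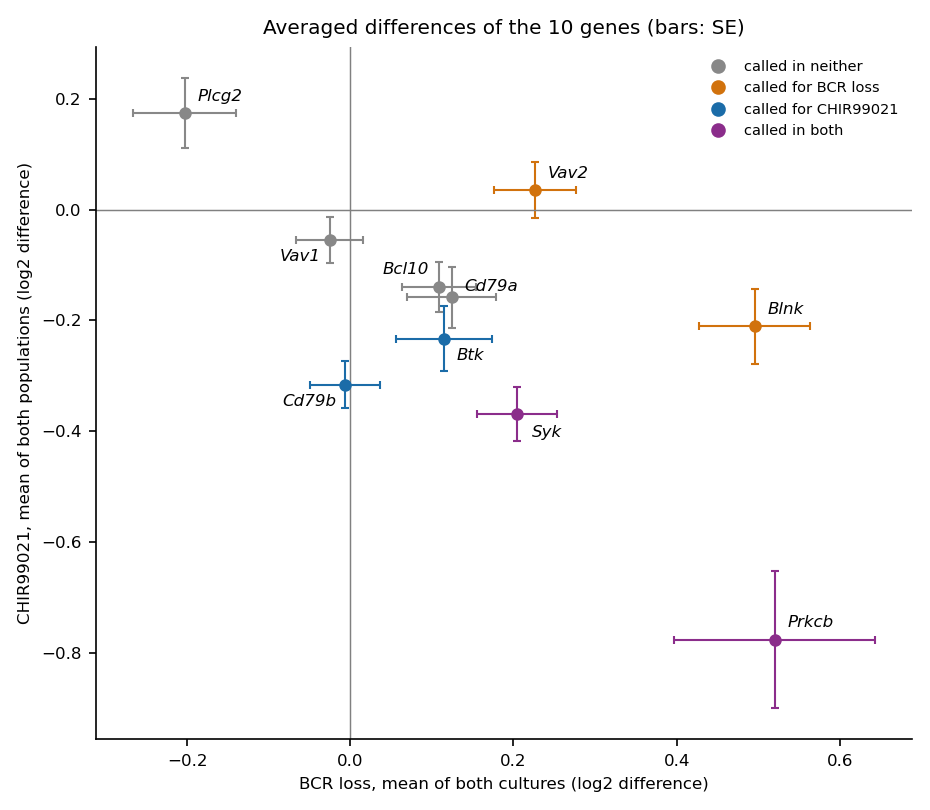
Averaged BCR-loss difference (x axis, log2) against averaged CHIR99021 difference (y axis, log2) of the 10 genes, with SE bars and colours for the comparison in which a gene was called. Syk and Prkcb were called in both, at 0.20 and 0.52 for BCR loss and -0.37 and -0.78 for CHIR99021, and Plcg2 lies at -0.20 and 0.17.

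The last comparison set BCR-negative cells that had received CHIR99021 beside BCR-positive cells that had not. None of the 10 was called, beside 0% of all genes called higher and 0.0159% lower, and 4 of the 10 and 1644 of all genes had an unadjusted p under 0.05. Cd79b stood at -0.32 ± 0.0604 and Syk at -0.16 ± 0.0688, both lower in all 3 lymphomas, while Vav2 stood at 0.26 ± 0.0707, higher in all 3 (limma, adjusted p = 0.145, 0.53 and 0.28). Blnk was at 0.29 ± 0.0962, but not higher in lymphoma 2564 (-0.06). With Vav1, 4 of the 10 had the same sign in all 3 lymphomas, beside 29.7% of all genes, and the median of the 10 was -0.06 (all genes, 0.007).

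Of the genes for the receptor's signalling chains, Cd79b was called for CHIR99021 and Cd79a was not, and the difference between them was not tested. Cd79a, in the order of lymphomas 2564, 2646 and 2676, stood at 11.22, 11.61 and 11.05 in untreated BCR-positive and 11.31, 11.77 and 11.22 in untreated BCR-negative cells. With CHIR99021 it stood at 10.89, 11.48 and 11.08 in BCR-positive and 10.96, 11.63 and 11.17 in BCR-negative cells. The 4 groups overlapped, lymphoma 2646 was the highest in each, and within each of the 6 cultures the BCR-negative cells were the higher ones by 0.07 to 0.17. Cd79a was not called in any comparison (BCR loss in untreated cultures 0.14 ± 0.0773, limma, adjusted p = 0.36). Cd79b stood at 11.51, 11.67 and 11.55 in untreated BCR-positive and 11.45, 11.70 and 11.60 in untreated BCR-negative cells. With CHIR99021 it was 11.07, 11.44 and 11.31 in BCR-positive and 11.03, 11.40 and 11.34 in BCR-negative cells. All 6 treated arrays lay below all 6 untreated arrays. How many of all genes did so was not counted. Within BCR-positive and within BCR-negative cells, treated and untreated arrays did not overlap for 1384 and 1628 of all 18820 genes. BCR loss left a difference of 0.01 ± 0.0604 in untreated cultures, with a 95% confidence interval from -0.13 to 0.14, whereas the fall with CHIR99021 in BCR-negative cells was called (limma, adjusted p = 0.024). That call ended when any lymphoma was left out (limma, adjusted p = 0.0884 to 0.231), without the treated BCR-negative array of 2564 (-0.28, adjusted p = 0.129) or 2646 (-0.34, adjusted p = 0.0896) or the untreated BCR-negative array of 2646 (-0.34, adjusted p = 0.0794) or 2676 (-0.34, adjusted p = 0.0529), and after subtraction of array medians (-0.27, adjusted p = 0.0505), while the averaged fall was called without 2564 or 2676 and not without 2646 (adjusted p = 0.0751). Of all genes, CHIR99021 in BCR-negative cells called 113, 0 and 175 without 2564, 2646 and 2676, beside 692 with all arrays. Averaged CHIR99021 called 403, 84 and 458, beside 1389. Transcription factors that maintain B-cell identity moved beside Cd79b: averaged over populations Pax5 fell by 0.37 ± 0.0799 and Ebf1 by 0.80 ± 0.187 with CHIR99021. Counting Cd79b itself, 3 of 6 B-cell markers were thus called lower, beside 3.47% of all genes. Cd79a, also among the 6, was not called, but averaged -0.16 ± 0.0546 and was negative in all 3 lymphomas. The Ebf1 difference was -1.57 in lymphoma 2564, -0.38 in 2646 and -0.44 in 2676, and that of Pax5 -0.61, -0.42 and -0.08, so that both were largest in 2564. The mean of the 6 lay between 9.25 and 9.59 on untreated and between 8.73 and 9.32 on treated arrays. Of markers of other cells, Csf1r rose by 0.66 ± 0.164 (0.11, 1.12 and 0.73 in the same order) and Pecam1 fell by 0.62 ± 0.127 (-1.08, -0.46 and -0.31) in the same comparison. Each was the only gene of its list to be called. The median was 0.02 over the 7 macrophage genes and -0.04 over the 5 of stroma and endothelium. Itgam, also a macrophage marker, was lower with CHIR99021 in every pair except BCR-negative 2676. The part of these markers in the result was not tested. In such bulk RNA, fewer cells of a kind and less RNA per cell cannot be told apart.

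Syk, the kinase that docks to the phosphorylated chains, stood at 9.64, 9.97 and 9.65 in untreated BCR-positive and 9.79, 10.24 and 9.89 in untreated BCR-negative cells. With CHIR99021 it stood at 9.08, 9.73 and 9.38 in BCR-positive and 9.30, 9.93 and 9.53 in BCR-negative cells. The groups overlapped because lymphoma 2646 was the highest in each, but in all 6 cultures the BCR-negative cells were higher, by 0.15 to 0.27, and in all 6 pairs the treated cells were lower, by 0.24 to 0.55. The fall with CHIR99021 in BCR-negative cells was called (limma, adjusted p = 0.0217). It was no longer called when any lymphoma was left out (limma, adjusted p = 0.076 to 0.18), where 0 to 175 of all genes were called, beside 692. Of single arrays, treated BCR-negative 2564 (-0.34, adjusted p = 0.121) and 2646 (-0.42, adjusted p = 0.0681) and untreated BCR-negative 2646 (-0.40, adjusted p = 0.0687) ended it. The averaged fall was not called without 2646 (-0.42, adjusted p = 0.0572), and the averaged rise with BCR loss was not called without 2646 or 2676 (0.19 and 0.21, adjusted p = 0.299 and 0.266) and held in 2 of the 12 fits that left out a single array, those without untreated BCR-positive or treated BCR-negative 2564 (values over the 12, 0.17 to 0.24). Of all genes, averaged CHIR99021 called 84 without 2646, and averaged BCR loss 1 without 2646 and 11 without 2676.

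Blnk, the adaptor that links SYK to the enzymes downstream, had the largest called rise of the 10 genes in untreated cultures. Its level was 10.19, 10.33 and 10.33 in untreated BCR-positive and 10.59, 11.16 and 10.99 in untreated BCR-negative cells, without overlap. Blnk was the only 1 of the 10 genes without overlap there, beside 2065 of all 18820 genes. With CHIR99021 it was 9.92, 10.45 and 10.25 in BCR-positive and 10.12, 10.84 and 10.74 in BCR-negative cells, where the groups overlapped. Within lymphomas the BCR-negative cells were higher by 0.40, 0.83 and 0.65 in untreated and 0.20, 0.39 and 0.50 in treated cultures. The rise in untreated cultures (limma, adjusted p = 0.017) was not called without lymphoma 2646 (0.53, adjusted p = 0.257) or 2676 (0.62, adjusted p = 0.135). Of single arrays, those of untreated BCR-positive 2646 (0.53, adjusted p = 0.0796), untreated BCR-negative 2646 (0.60, adjusted p = 0.0708) and untreated BCR-positive 2676 (0.61, adjusted p = 0.0799) ended it when left out. A fit restricted to the 6 arrays of untreated cultures did not call it (limma, adjusted p = 0.0817), and it called 0 of all 18820 genes. Of all genes, BCR loss in untreated cultures called 0 without 2646 and 22 without 2676, beside 791 with all arrays. The averaged rise of Blnk was called in all 12 fits without a single array, and not without lymphoma 2646 or 2676 (limma, adjusted p = 0.144 and 0.15). There 1 and 11 of all genes were called, beside 1247.

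Btk, a kinase that phosphorylates PLCG2, stood at 9.19, 9.27 and 9.14 in untreated BCR-positive and 9.43, 9.57 and 9.16 in untreated BCR-negative cells. With CHIR99021 it stood at 8.85, 9.32 and 8.95 in BCR-positive and 8.96, 9.30 and 8.99 in BCR-negative cells. The groups overlapped, and the BCR-loss difference in untreated cultures (0.19 ± 0.0836) was 0.24 in 2564 and 0.30 in 2646, with 0.02 in 2676 (limma, adjusted p = 0.241). The averaged fall with CHIR99021 was called in 2 of 12 fits without a single array, untreated BCR-positive 2646 or untreated BCR-negative 2676 (values over the 12, -0.27 to -0.19), and in none without a lymphoma (-0.29 without 2646, -0.26 without 2676 and -0.15 without 2564). Of all genes, these fits called 84, 458 and 403. Plcg2, the phospholipase that BTK activates, had differences of the opposite sign to those of Btk. It was at 10, 10.33 and 10.09 in untreated BCR-positive and 9.57, 10.35 and 9.76 in untreated BCR-negative cells. With CHIR99021 it was at 10.14, 10.46 and 10.21 in BCR-positive and 10, 10.39 and 9.95 in BCR-negative cells. BCR-negative cells were lower in 5 of the 6 cultures, the exception being untreated 2646 (0.02), and treated cells were higher in all 6 pairs. The BCR-loss difference in untreated cultures was -0.25 ± 0.0889 and that of CHIR99021 in BCR-negative cells 0.22 ± 0.0889, and neither was called (limma, adjusted p = 0.14 and 0.209).

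Vav1 and Vav2 encode exchange factors that activate small GTPases. Vav1 had the narrowest range of the 10 genes, 0.203 over the 12 arrays, with 8.96, 8.95 and 8.96 in untreated BCR-positive and 9.01, 9.01 and 8.91 in untreated BCR-negative cells. With CHIR99021 it was 8.87, 9.04 and 8.93 in BCR-positive and 8.89, 8.84 and 8.91 in BCR-negative cells. In BCR-negative cells all treated arrays lay below all untreated ones, but in lymphoma 2676 the difference was -0.002 and both rounded to 8.91. Treated and untreated BCR-negative arrays did not overlap for 2 of the 10 genes and 1628 of all 18820 genes. The mean difference of Vav1 was -0.10 ± 0.0582 (limma, adjusted p = 0.438). Its BCR-loss difference in untreated cultures was 0.02 ± 0.0582, with a 95% confidence interval from -0.11 to 0.15, and no comparison called it. Vav2 stood at 7.41, 7.86 and 7.88 in untreated BCR-positive and 7.73, 8.15 and 8.18 in untreated BCR-negative cells. With CHIR99021 it stood at 7.49, 7.84 and 8.15 in BCR-positive and 7.58, 8.04 and 8.31 in BCR-negative cells. Groups overlapped since lymphoma 2564 was the lowest throughout, yet the rise with BCR loss in untreated cultures was 0.32, 0.29 and 0.31 in the 3 lymphomas. Its adjusted p of 0.045 (limma) lay close to the threshold. The call was lost when any lymphoma was left out (adjusted p = 0.128 to 0.313), after subtraction of array medians (0.25, adjusted p = 0.0787) and with trend and robust settings (adjusted p = 0.0644). It was also lost without 10 of the 12 single arrays (0.25 to 0.36), the exceptions being the CHIR99021-treated BCR-negative arrays of 2564 and 2676. Of all genes, BCR loss in untreated cultures called 919, 0 and 22 without 2564, 2646 and 2676, beside 791 with all arrays. The averaged rise of Vav2 held in 5 of the 12 single-array fits. It was not called when any lymphoma was left out (0.22 to 0.24, limma, adjusted p = 0.0749 to 0.266). Those fits called 1843, 1 and 11 of all genes in the same order. The CHIR99021 difference of Vav2 was 0.11 ± 0.0707 in BCR-positive cells and -0.04 ± 0.0707 among BCR-negative ones, neither called.

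Prkcb, which encodes the protein kinase C that couples the receptor to NF-κB, had the widest range of the 10 genes, 2.67 over the 12 arrays. Its level was 6.47, 5.93 and 6.93 in untreated BCR-positive and 6.91, 6.36 and 7.89 in untreated BCR-negative cells. With CHIR99021 it was 5.22, 5.57 and 6.49 in BCR-positive and 5.89, 5.58 and 7.09 in BCR-negative cells. Lymphoma 2676 was the highest in every group, so that groups overlapped, while within lymphomas the treated cells were lower in all 6 pairs, by 1.24, 0.36 and 0.45 among BCR-positive and 1.02, 0.78 and 0.80 among BCR-negative cells. BCR-negative cells were higher in all 6 cultures, though by 0.01 in treated 2646. The fall with CHIR99021 in BCR-negative cells was called (limma, adjusted p = 0.0309). When any lymphoma was left out it was not called (-0.91 to -0.79, limma, adjusted p = 0.0786 to 0.18). There 0 to 175 of all genes were called, beside 692 with all arrays. The call for Prkcb held in 6 of 12 fits without a single array. The arrays that ended it were untreated and treated BCR-negative 2564 (-0.81 and -0.83), untreated and treated BCR-negative 2646 (-0.99 and -0.80), untreated BCR-negative 2676 (-0.80) and treated BCR-positive 2676 (-0.87), with adjusted p from 0.0526 to 0.155. The averaged fall was called without any single array and not without lymphoma 2564 or 2646 (adjusted p = 0.052 and 0.0567), and the averaged rise with BCR loss held in 2 of the 12 single-array fits, those without untreated BCR-positive 2564 or treated BCR-positive 2646 (values over the 12, 0.42 to 0.62), and was not called without lymphoma 2646 or 2676 (0.67 and 0.39). Of all genes, averaged CHIR99021 called 403 without 2564 and 84 without 2646, and averaged BCR loss 1 without 2646 and 11 without 2676. Bcl10, the NF-κB adaptor at the end of this route, stood at 8.53, 9.17 and 9.01 in untreated BCR-positive and 8.76, 9.27 and 8.97 in untreated BCR-negative cells. With CHIR99021 it stood at 8.36, 9.05 and 8.84 in BCR-positive and 8.57, 9.20 and 8.84 in BCR-negative cells. Treated cells were lower in all 6 pairs, by 0.07 to 0.18, and Bcl10 was not called in any comparison (CHIR99021 in BCR-positive cells -0.15 ± 0.0640, limma, adjusted p = 0.474).

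The promoters of the genes with the largest averaged differences, Blnk and Prkcb, and of Vav2, the other gene called for BCR loss in untreated cultures, are shown as the 250 bases before the transcription start, from RefSeq (GRCm38.p6). Capitals mark matches to 7 motifs searched on both strands.
Blnk, chr19:40994222-40994471, minus strand: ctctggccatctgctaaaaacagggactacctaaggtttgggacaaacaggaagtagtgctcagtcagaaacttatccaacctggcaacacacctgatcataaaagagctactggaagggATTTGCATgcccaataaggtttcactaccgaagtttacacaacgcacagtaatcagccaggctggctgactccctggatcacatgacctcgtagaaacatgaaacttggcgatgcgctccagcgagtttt
Prkcb, chr7:122288875-122289124, plus strand: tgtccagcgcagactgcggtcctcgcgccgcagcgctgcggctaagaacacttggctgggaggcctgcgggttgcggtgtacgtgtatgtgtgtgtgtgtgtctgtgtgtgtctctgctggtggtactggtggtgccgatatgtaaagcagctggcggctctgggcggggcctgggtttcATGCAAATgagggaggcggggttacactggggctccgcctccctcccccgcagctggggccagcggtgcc
Vav2, chr2:27427609-27427858, minus strand: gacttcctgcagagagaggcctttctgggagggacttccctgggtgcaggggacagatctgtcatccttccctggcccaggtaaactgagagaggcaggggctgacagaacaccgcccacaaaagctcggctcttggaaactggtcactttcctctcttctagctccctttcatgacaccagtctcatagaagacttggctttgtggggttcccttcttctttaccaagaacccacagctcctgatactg
The motifs, picked with the results known, were the E-box bound by MYC (CACGTG), the FOXO motif (TGTTTAC), an NF-κB motif (GGGANNTTC), the AP-1 motif (TGANTCA), an EBF motif (CCCNNGGGA), an ETS motif (CCGGAAGT) and the octamer bound by OCT factors in B cells (ATGCAAAT). Blnk held the octamer, read on the opposite strand, 130 to 123 bases before the start, and Prkcb held it 70 to 63 bases before the start. Vav2 held none of the 7. The reference table gave 10 promoters for 9 of the genes (Syk has 2, Cd79b is not listed), of which 2 held the octamer, beside 1.6% of 32851 promoters, and 1, that of Plcg2, held the E-box, beside 6.02%. No promoter of the 10 held the FOXO, NF-κB, AP-1, EBF or ETS letters, which 2.88% to 6.75% of all promoters hold, and no match overlapped another. The GC content was 47.6% for Blnk, 65.2% for Prkcb and 54.0% for Vav2, beside a median of 52.4%. A match is a description of these letters and not a bound site.

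How far these genes varied between lymphomas and between groups was described next. Of the sum of squares over the 12 arrays, the difference between lymphomas took 86.0% for Bcl10, 79.2% for Cd79a and 76.3% for Vav2, but 33.7% for Cd79b, 33.3% for Blnk and 5.95% for Vav1, beside a median of 36.8% over all genes. The difference between the 4 groups took 61.1% for Cd79b, 59.8% for Blnk and 46.9% for Syk, beside a median of 21.3%, and 10.5% for Bcl10. Averaged over the 4 arrays of a lymphoma, Prkcb was 6.12 ± 0.731 (SD) in 2564, 5.86 ± 0.375 in 2646 and 7.10 ± 0.586 in 2676. Bcl10 was 8.56 ± 0.161, 9.17 ± 0.0931 and 8.92 ± 0.0857 in the same order. Lymphoma 2646 had the highest mean of 8 of the genes, 2676 that of Vav2 and Prkcb.

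**Figure D4:**
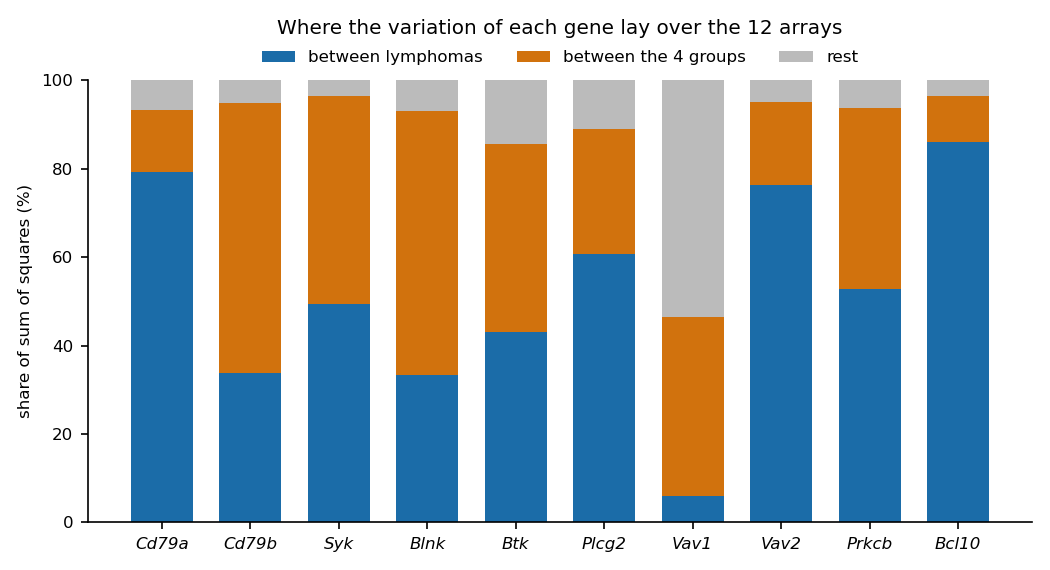
Share of each gene's sum of squares over the 12 arrays (y axis, percent) that lay between the 3 lymphomas, between the 4 groups and in the rest. The lymphoma share is 86.0% for Bcl10 and 33.3% for Blnk, and the rest is 53.6% for Vav1.

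As a description of patterns, log2 levels were centred within each lymphoma and correlated over the 12 arrays, which share the 4 groups, so that no p is given. Syk and Prkcb ran together (Pearson r = 0.96), as did Syk with Cd79a and Btk (0.91 each), whereas Plcg2 was opposed to Prkcb (-0.87) and Syk (-0.79), and Vav2 had r = -0.08 with Cd79b. Among all genes, the patterns most like that of Syk were those of Pik3cg (0.987), a PI3K subunit, Klhl24 (0.983) and Crebrf (0.980). Nearest to Blnk were Sh2d3c (0.986), Ralgds (0.985) and Peli1 (0.981), and nearest to Prkcb were Rcsd1 (0.978), Pik3cg (0.969) and Serpinb6a (0.958). For Cd79b they were Gba2 (0.973), Mtmr14 (0.962) and Gnas (0.961), for Btk Med24 (0.972), Cdh24 (0.963) and Spg21 (0.957), and for Vav2 Gak (0.952), Sh2d5 (0.948) and Klf10 (0.947).

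Beside the 10 genes stood a list of 34 other genes of the pathway, of which 29 were measured by a probe set of their own and the rest were not analysed here. For BCR loss in untreated cultures 3 of 29 rose and none fell, beside 1.91% and 2.3% of all genes. They were Itpr2, a calcium-release channel of the endoplasmic reticulum (0.56 ± 0.0859, limma, adjusted p = 0.017), Ppp3ca, the catalytic subunit of calcineurin (0.41 ± 0.0885, adjusted p = 0.0357), and Plcg1, the relative of Plcg2 (0.41 ± 0.0932, adjusted p = 0.0421). Rasgrp1, an exchange factor for Ras, had the lowest value (-1.24 ± 0.302), negative in all 3 lymphomas, but did not pass (adjusted p = 0.0519). The list's median was 0.02 (all genes, -0.002). In CHIR99021-treated cultures there was no call, and 9 of the 29 had an unadjusted p under 0.05, beside 1628 of all 18820 genes. The smallest p were those of Ppp3ca (0.34 ± 0.0885) and Pik3r1 (0.24 ± 0.0629).

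With CHIR99021 in BCR-negative cells 1 of the 29, Itpr2, fell (-0.47 ± 0.0859, limma, adjusted p = 0.0241) and none rose, beside 1.76% and 1.91% of all genes. Ppp3ca at -0.35 ± 0.0885 did not pass. In BCR-positive cells there was no call, and 4 of the 29 had an unadjusted p under 0.05, beside 1891 of all 18820 genes. The smallest p were those of Orai1, the calcium channel of the plasma membrane (0.21 ± 0.0644), and Ppp3ca (-0.27 ± 0.0885). The interaction had none at an unadjusted p under 0.05, beside 990 of all genes (Itpr2 -0.24 ± 0.122 and Nfatc1 -0.18 ± 0.0911 had the smallest p). BCR-negative cells with CHIR99021, set beside untreated BCR-positive cells, had none called. At an unadjusted p under 0.05 there were 5 of the 29 and 1644 of all genes, with Rasgrp1 at -1.72 ± 0.302 and Plcg1 at 0.39 ± 0.0932. In the averaged comparisons, 5 of 29 were called higher in BCR-negative cells (Itpr2 0.44, Ppp3ca 0.38, Plcg1 0.36, Pik3r1 0.24 and Prkcd 0.15), beside 3.17% of all genes. A further 3 were called lower (Rasgrp1 -1.11, the adaptor Grb2 -0.20 and Orai1 -0.19), beside 3.46% of all genes. Averaged CHIR99021 lowered Itpr2 (-0.34) and Ppp3ca (-0.31) and raised Orai1 (0.21), 2 and 1 of 29 beside 3.47% and 3.91% of all genes.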

How the data were processed

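The deposited values are log2 levels of probe sets. Per the submitters' processing notes, the authors used RMA and Affymetrix Power Tools. Versions and genome build were not given in the sources used here. RMA scales arrays to each other, so differences are relative to the bulk of genes, yet the array medians still ran from 4.71 to 4.92. Subtracting them moved the median difference of all genes from -0.002 to -0.064 for BCR loss in untreated cultures. For CHIR99021 in BCR-negative cells it moved from 0.01 to 0.07. Of 35556 probe sets, 23099 are listed in the platform annotation, 21218 with 1 symbol, 1881 with several (not used) and 12457 not listed. Of those with 1 symbol, 21185 were matched to RefSeq by gene identifier. The probe set with the highest mean stood for each of 18820 genes, and all 10 members passed the filter on dim genes (30th percentile, 4.12).

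All 12 arrays entered 1 limma 3.58.1 model (R 4.3.3) whose terms were the 4 groups and the 3 lymphomas, leaving 6 residual degrees of freedom. P-values came from eBayes and were adjusted over all genes by Benjamini-Hochberg. The script was tested on simulated data. Lymphoma was a block because the labels give each number to 1 lymphoma that supplied all 4 groups; their deviations from group means correlated within lymphomas at r from 0.813 to 0.907 (18 pairs). Text names all members, called genes and the 2 smallest p of the other pathway genes, and the 3 genes most like each called member. Members and lists were chosen with earlier results of these data known. With arrays, their number limits the precision. Alternatives were another block, only the arrays compared, a dim filter, the mean of probe sets, other scalings, trend and robust eBayes, and leaving out each lymphoma or array.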

Additional observations from a re-analysis of the deposited data

How the results depend on the processing

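None of the 54 sign changes among 1850 alternative values of members touched a called value. With no replicate block, an unpaired fit, 0 of the 10 genes and 0 of the 29 other pathway genes were called in any comparison. Of all 18820 genes it called 5 for BCR loss in untreated cultures and 3 for CHIR99021 in BCR-negative cells. For averaged BCR loss and averaged CHIR99021 it called 6 and 22. With lymphoma as a random replicate block, the counts of members and other pathway genes were 0 and 0 in the first 2 of these comparisons. They were 1 and 2 for averaged BCR loss and 1 and 0 for averaged CHIR99021. Of all genes that fit called 75, 81, 137 and 220 in the same order. A finer replicate block by culture, run for BCR loss and the interaction, called the same members as before for BCR loss in untreated cultures (Blnk and Vav2) and averaged (Blnk, Prkcb, Syk and Vav2). Of all genes it called 600 and 987 there. With only the arrays compared, BCR loss in untreated cultures gave 0 and 0, CHIR99021 in BCR-negative cells 1 (Prkcb) and 0, and CHIR99021 in BCR-positive cells 1 other pathway gene. Of all genes these fits called 0, 29 and 109. Cyclic loess gave 5 other pathway genes for BCR loss in untreated cultures and 2 for CHIR99021 in BCR-negative cells, the dim filter 2 there, and trend and robust settings 3 there. They stood beside 650, 591, 799 (of 13174) and 683 of all genes. Trend and robust settings also called 1 member for BCR loss in untreated cultures (850 of all genes) and 1 (Cd79b) for CHIR99021 in BCR-positive cells (33). Median subtraction left 1 (Blnk) for BCR loss in untreated cultures (1301). The causes were not tested.

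Leaving out a lymphoma or an array gave 0 to 2 members and 0 to 4 other pathway genes for BCR loss in untreated cultures, 0 to 4 and 0 to 2 for CHIR99021 in BCR-negative cells, 0 to 4 and 0 to 7 for averaged BCR loss, and 0 to 5 and 0 to 5 for averaged CHIR99021. Over the same fits, the calls among all 18820 genes ranged from 0 to 1204, 0 to 840, 1 to 1843 and 84 to 1659, in this order. Without lymphoma 2646 no member and no other pathway gene was called in any comparison. Few of all genes were called there either. The counts were 0 for BCR loss in untreated cultures (791 with all arrays) and 0 for CHIR99021 in BCR-negative cells (692). They were 1 for averaged BCR loss (1247) and 84 for averaged CHIR99021 (1389). Averaged CHIR99021 on Btk went from -0.233 to -0.146 without 2564. A fit without an array assumes that the remaining arrays of its group vary like the others.

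The values that changed sign were uncalled, and at most 0.183 in size. After median subtraction Cd79b (-0.054) and Vav1 (-0.044) did so for BCR loss in untreated cultures, Btk (-0.007) for BCR loss with CHIR99021, Vav1 (0.032) for CHIR99021 in BCR-positive and Vav2 (0.015) in BCR-negative cells. After cyclic loess Bcl10 did so in the interaction (-0.021), and Cd79b (0.018) and Vav1 (0.005) for averaged BCR loss. Over the fits without a lymphoma or array, BCR loss in untreated cultures ranged from -0.031 to 0.069 for Cd79b and from -0.010 to 0.052 for Vav1. With CHIR99021 it ranged from -0.057 to 0.025 for Cd79b, -0.040 to 0.102 for Btk and -0.112 to 0.001 for Vav1. CHIR99021 in BCR-positive cells ranged from -0.180 to 0.050 for Blnk and -0.062 to 0.032 for Vav1, and in BCR-negative cells from -0.130 to 0.006 for Vav2. The interaction ranged from -0.106 to 0.041 for Cd79a, -0.088 to 0.018 for Cd79b, -0.109 to 0.014 for Syk, -0.005 to 0.216 for Plcg2, -0.143 to 0.002 for Vav1, -0.386 to 0.023 for Prkcb and -0.027 to 0.074 for Bcl10. Treated BCR-negative against untreated BCR-positive cells ranged from -0.116 to 0.075 for Cd79a, -0.089 to 0.028 for Plcg2 and -0.068 to 0.036 for Bcl10. The averages ranged from -0.030 to 0.025 for Cd79b (BCR loss) and from -0.048 to 0.085 for Vav2 (CHIR99021).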
